A study of Mus musculus with 2 samples.

Results

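*Olig1*, *Olig2*, *Sox10*, *Pdgfra*, *Cspg4*, *Nkx2-2* and *Egfr* are 7 genes of the oligodendrocyte lineage, listed by name for their place in this lineage, at a time when earlier results of these data were known. Of these 7 genes, 5 were found among the 15046 genes of the count table, and *Sox10* and *Pdgfra* were not analysed here. The levels of *Olig1*, *Olig2*, *Egfr*, *Cspg4* and *Nkx2-2* were followed in single adult mouse neural stem/progenitor cells (NSPCs), to see how far cultured NSPCs carry transcripts of this lineage and whether the levels vary with the lipid droplet (LD) content, the phase of the cell cycle or the cluster of a cell. The NSPCs came from the subventricular zone of male C57/Bl6 mice aged 6 to 8 weeks, were passaged at least 5 times as neurospheres in medium with EGF and basic FGF, and were then grown with the same growth factors. They belonged to 1 stable line that expresses the LD coat protein PLIN2 fused to GFP from a retroviral construct under the CAG promoter. From the proliferating culture, the 25% of cells at the bottom of the GFP range (the low category) and the 25% at its top (the high category) were gated, placed as single cells in 2 plates of 384 wells and sequenced by SORT-seq, which counts the 3′ ends of polyadenylated transcripts by unique molecular identifiers (UMIs). All groups thus share the line, the construct and the growth factors, and are told apart by GFP signal and plate.

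Plate 1 held 95 cells of the low and 84 of the high category, and plate 2 held 72 and 53, so that 4 groups of plate and category were compared. The median number of UMIs per cell was 7856 and 11955 in the low category and 11709 and 14729 in the high category of plates 1 and 2. Cells of the high category thus held more UMIs on each plate. The paper pooled the material of 384 cells into each library, and the cause of this gap was not tested. The plates shared 59 well barcodes, and 0 rows of wells held both categories. Differences between the categories can therefore not be told apart from differences between rows of wells. Of the 5 NSPC markers *Fabp7*, *Vim*, *Nes*, *Hes1* and *Sox2*, 4 were found in at least 50% of the cells, and *Sox2* in 16.1%. Their summed level was 6248 to 6492 CPM in the 4 groups, with *Fabp7* at 3075 and *Vim* at 2836 CPM over all cells. CPM are counts scaled to the total of each group, adjusted by edgeR's TMM factors in groups of plate with category or phase. CPM over all cells and by cluster are scaled by the total alone. Of the lists of other cells, 0 of 7 microglia markers were analysed, the 2 analysed fibroblast markers had 2.5 and 3 UMIs in all cells, and endothelial, mural and ependymal markers summed to at most 30.6 CPM in any group. No cell type that should lack the lineage genes was among the cells, so no background share of free RNA can be given beside the shares of positive cells.

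Oligodendrocytes, the cells that wrap axons in myelin, arise from oligodendrocyte progenitor cells through committed precursors. *Olig1* and *Olig2* encode neighbouring basic helix-loop-helix transcription factors of this lineage, and *Olig2* is in addition found in rapidly dividing progenitors of the subventricular zone and in NSPCs grown with growth factors. *Nkx2-2* encodes a homeodomain factor of the same lineage, *Cspg4* encodes NG2, a surface proteoglycan by which progenitors are recognised, and *Egfr* encodes the receptor for EGF, the growth factor in the medium. *Sox10* and *Pdgfra*, a transcription factor and the receptor for PDGF, complete the usual set.

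In GRCm38 (GENCODE M21), *Olig2* lies at chr16:91225457-91228677 and the single-exon gene *Olig1* at chr16:91269772-91271933, both on the plus strand and 41094 bases apart. *Egfr* lies at chr11:16752203-16918158 and *Cspg4* at chr9:56865033-56899870 on the plus strand, and *Nkx2-2* at chr2:147177546-147194243 on the minus strand. Promoter sequence from RefSeq (GRCm38.p6) is shown for *Olig2*, whose level fell in the later phases of the cell cycle (see the phases below), and for *Egfr*, whose level did not pass the test there. The bases end just before the annotated start of each gene, at chr16:91225300-91225456 and chr11:16751953-16752202 on the plus strand, and capitals mark the motif CCAAT, read here as ATTGG from the other strand.
Olig2: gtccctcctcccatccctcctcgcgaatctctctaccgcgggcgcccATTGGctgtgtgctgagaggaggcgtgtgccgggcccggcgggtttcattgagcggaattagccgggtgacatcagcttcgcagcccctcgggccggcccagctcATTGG
Egfr: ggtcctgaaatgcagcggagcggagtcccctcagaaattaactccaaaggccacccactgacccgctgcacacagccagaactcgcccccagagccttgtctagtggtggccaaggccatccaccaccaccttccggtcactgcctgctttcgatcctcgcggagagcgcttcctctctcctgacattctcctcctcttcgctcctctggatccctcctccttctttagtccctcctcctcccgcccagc
The motif CCAAT, bound by the factor NF-Y, was searched on both strands and found at 2 places before *Olig2* and at 0 places in the windows of *Egfr*, *Cspg4* and *Nkx2-2*, whereas 37.4% of 32851 mouse promoter windows of 300 bases hold it. The E-box CANNTG, to which basic helix-loop-helix factors bind, was found at 0 places in the windows of *Olig2*, *Egfr* and *Cspg4*, and 72.3% of all windows hold it. The window of *Nkx2-2*, which held 3 E-boxes, lies inside the annotated gene and not before its start. TTTGAA, a motif of cell cycle genes, and the E2F-type motifs TTTGGCGC and TTTCGCGC were at 0 places in these 4 windows, and 17.9% and 0.813% of all windows hold them. No window matched *Olig1*.

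*Olig1* and *Olig2* were among the most abundant transcripts of these NSPCs, *Egfr* was found in most cells, and *Cspg4* and *Nkx2-2* were sparse. Over all cells, 7962 UMIs were counted for *Olig1*, 3883 for *Olig2*, 959.7 for *Egfr*, 98.5 for *Cspg4* and 76.5 for *Nkx2-2*. As each molecule is counted once at its 3′ end, these levels are not scaled by gene length. By CPM over all cells, *Olig1* with 2297 CPM ranked 33rd and *Olig2* with 1120 CPM ranked 94th of 15046 genes, followed by *Egfr* with 276.9 CPM at rank 529, *Cspg4* with 28.4 CPM at rank 5473 and *Nkx2-2* with 22.1 CPM at rank 6323. The levels of *Olig1*, *Olig2* and *Egfr* did not overlap in any of the 4 plate and category groups, whereas *Cspg4* with 20.1 to 35.4 CPM and *Nkx2-2* with 16.6 to 25.8 CPM did, so the order of these 2 genes is not beyond their spread.

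*Olig1* was positive, that is, had at least 1 UMI, in every cell, a property that 24 of the 15046 genes had. Its exact binomial interval of 95%, which covers counting error only, began at 98.8%. A cell held at least 1 and at the median 23 *Olig1* UMIs, and scaled to 10000 UMIs per cell the values ran from 2.29 to 65.4. *Olig2* was positive in 300 cells (98.7%, interval 96.7% to 99.6%), with a median of 11 and at most 43 UMIs. The 4 cells without an *Olig2* UMI held 11, 4, 7 and 7 UMIs of *Olig1* and had a median of 4509 UMIs in all, below the medians of the 4 groups. *Egfr* was positive in 83.2% of the cells (interval 78.5% to 87.2%), with a median of 2 and at most 18 UMIs.

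*Cspg4* was positive in 72 cells (23.7%, interval 19.02% to 28.9%), with at most 3 UMIs per cell. *Nkx2-2* was positive in 30 cells (9.87%, interval 6.76% to 13.8%). The authors' counting divided reads between genes, and 53 of the 73 cells with any *Nkx2-2* count held a part of a UMI. With parts of UMIs included, the share of *Nkx2-2* was 24.01%. *Nkx2-2* overlaps the antisense genes *Nkx2-2os* and *6430503K07Rik*, so its counts are uncertain. *Egfr* overlaps the antisense gene *Egfros*, and 46 cells (18.0% of those with any *Egfr* count) held a part of a UMI, whereas *Olig1* and *Olig2* had whole UMIs in every cell. *Olig1* shares bases at its 3′ end with the antisense lincRNA *Gm15966*.

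The shares of the sparse genes moved with depth. Cells with *Cspg4* had a median of 13554 UMIs against 10224 in cells without it. For *Nkx2-2* the medians were 18616 and 10404, and for *Egfr* 12212 and 4600. After thinning all cells to a common depth of 5000 UMIs, at the cost of 45 shallower cells, the share of positive cells was 100% for *Olig1*, 97.3% for *Olig2*, 71.04% for *Egfr*, 11.6% for *Cspg4* and 5.02% for *Nkx2-2*. A cell without a *Cspg4* or *Nkx2-2* UMI can therefore not be told from one with a low level of the transcript. The order of the 5 shares was the same before and after thinning.

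Most cells carried several of these transcripts at once. Of all cells, 58.6% were positive for 3 of the 5 genes and 24.7% for 4, whereas 42 cells were positive for 2, 8 for all 5 and 1 for *Olig1* alone. Among the cells thinned to equal depth, 64.1% were positive for 3 genes and 11.2% for 4. Of these thinned cells, 60 were positive for 2 genes, 4 for 1 and 0 for all 5. The number of genes found together in a cell thus moved with depth, and the pairs below are given as counted. *Egfr* was positive in 83.7% of the 300 *Olig2*-positive cells. *Cspg4* and *Nkx2-2* were found together in 10 cells, which is 13.9% of the *Cspg4*-positive and 33.3% of the *Nkx2-2*-positive cells. *Cspg4* was thus found with *Olig2* in 71 of its 72 cells, as almost every cell was *Olig2*-positive. *Olig1* exceeded *Olig2* in 86.5% of the cells, equalled it in 7 cells, and had 2.05 times as many UMIs in all.

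As counted, the shares of *Egfr* and *Cspg4* were higher on plate 2 than on plate 1 in both categories. On plate 1, *Egfr* was positive in 75.8% of the low and 82.1% of the high category, against 90.3% and 88.7% on plate 2. For *Cspg4*, 17.9% of the low and 19.05% of the high category were positive on plate 1, against 25.0% and 39.6% on plate 2. The share of *Nkx2-2* was 4.21% in the low and 14.3% in the high category of plate 1, against 11.1% and 11.3% on plate 2. The exact intervals of the low and high category overlapped for all 5 genes on both plates. As these intervals cover only the counting error over cells, the overlap is no test of the categories. After thinning, 75% of the low category and 64.4% of the high one were *Egfr*-positive on plate 1, and 78.1% and 66% on plate 2. *Cspg4* was then positive in 13.9% of the low and 6.85% of the high category on plate 1, and in 10.9% and 16% on plate 2, so its order of plates turned in the low category. On plate 1, where the high category had the higher *Egfr* share before thinning, it had the lower one after it, so the direction of that difference turned with thinning. Thinning kept 72 of the 95 low and 73 of the 84 high cells of plate 1, so the shares before and after it come from different sets of cells.

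**Figure D1:**
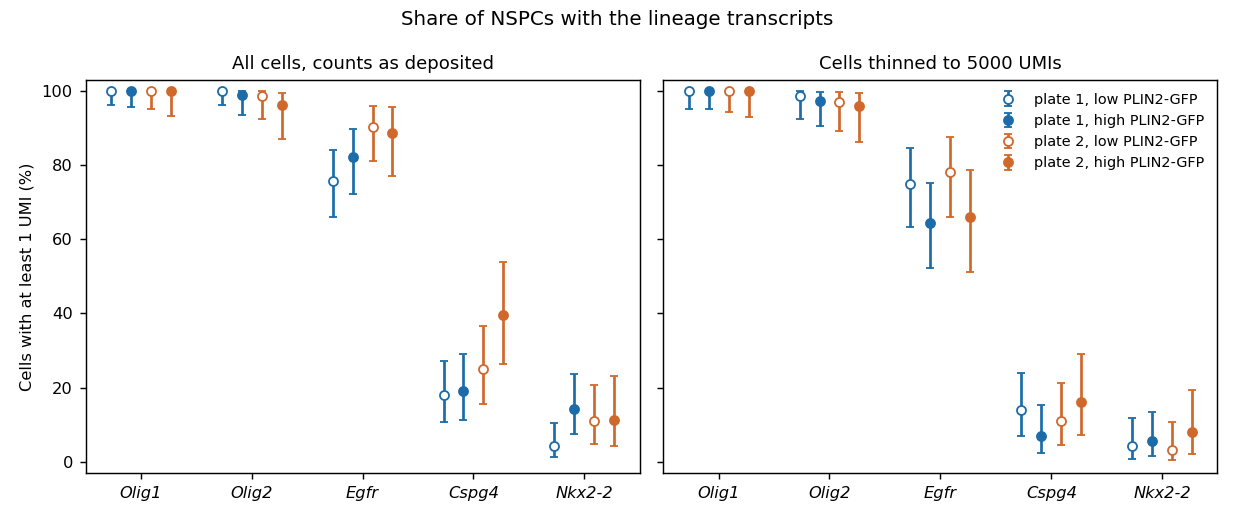
Share of cells with at least 1 UMI (%, vertical axis) for the 5 genes (horizontal axis) in the low (open) and the high (filled) category of plate 1 (blue) and plate 2 (orange), for the counts as deposited (left) and for cells thinned to 5000 UMIs (right). Bars are exact binomial intervals of 95%. *Olig1* and *Olig2* lie at or near 100% in every group, *Egfr* between 64.4% and 90.3%, and *Cspg4* and *Nkx2-2* at most at 39.6%.

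None of the 5 lineage genes passed the test between high and low PLIN2-GFP NSPCs. The test was edgeR's quasi-likelihood test on counts summed within plate and category, in which the plate entered as a block. Of 8348 genes tested, 2.14% were called at an adjusted p under 0.1, and 0 of the 5 lineage genes were called. An unadjusted edgeR p under 0.05 was found for 918 of the 8348 genes and for 0 of the 5. DESeq2 called 0 of the lineage genes and gave an adjusted p for *Olig1* and *Olig2* only. Both plates hold cells of 1 line, so the p-values measure the spread between these plates, which may be technical.

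*Olig1* had 2452 and 2300 CPM in the low and 2135 and 2346 CPM in the high category of plates 1 and 2. The high category was below the low one on plate 1 and slightly above it on plate 2, and the ranges overlapped. The log2 fold change of high over low was -0.10 (SE 0.07, interval -0.23 to 0.03, edgeR adjusted p = 0.625). *Olig2* had 1230 and 1005 CPM in the low and 1180 and 1051 CPM in the high category, which differed more between plates than between categories. Its log2 fold change was -0.02 (SE 0.08, interval -0.17 to 0.14, edgeR adjusted p = 0.973).

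*Egfr* had 257.3 and 315 CPM in the low and 260.9 and 275.3 CPM in the high category, with the values of the high category between those of the low one. Its log2 fold change was -0.10 (SE 0.12, interval -0.35 to 0.14, edgeR adjusted p = 0.857). *Cspg4* had 29.3 and 30.7 CPM in the low and 20.1 and 35.4 CPM in the high category, so the low category lay within the range of the high one. Its log2 fold change was -0.15 (SE 0.32, interval -0.78 to 0.47, edgeR adjusted p = 0.940). *Nkx2-2* had 16.6 and 21.3 CPM in the low and 25.8 and 23.99 CPM in the high category, so both high values lay above both low values. The share of all genes whose groups part in this way was not determined. Its log2 fold change was 0.38 (SE 0.36, interval -0.32 to 1.09, edgeR adjusted p = 0.794). The intervals were narrow for *Olig1* and *Olig2* and wide for *Cspg4* and *Nkx2-2*, whose sums held 13 to 28 UMIs each. They rest on 2 plates of 1 line, with the spread borrowed from all genes, so they cannot exclude a change. In G1 cells alone, the log2 fold change of *Olig1* was 0.14, above its interval.

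**Figure D2:**
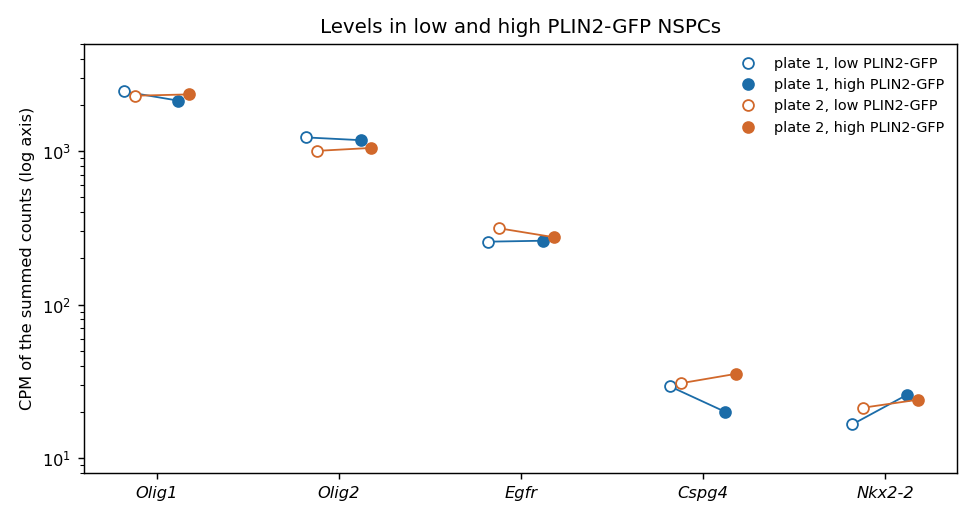
CPM of the summed counts (log axis) of the 5 genes in the low (open) and the high (filled) category, with lines joining the categories of plate 1 (blue) and plate 2 (orange). The lines are nearly flat for *Olig1* and *Olig2* and run in opposite directions on the 2 plates for *Cspg4*, from 29.3 to 20.1 CPM on plate 1 and from 30.7 to 35.4 CPM on plate 2.

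*Olig1* and *Olig2* fell from G1 to the G2M phase on both plates, and the other 3 genes did not pass the test. The phases are those the authors gave each cell in Seurat, from a gene list not given in the sources used here. The 97 cell cycle genes supplied with Seurat include 0 of the lineage genes. Of 7650 genes tested, 1255 (16.4%) were called between G2M and G1, with 7.40% of the genes lower and 9.01% higher in G2M. Of the 5 lineage genes, 2 were lower and 0 higher. *Olig1* had 2881 and 2874 CPM in G1, 2206 and 2368 CPM in S and 1593 and 1743 CPM in G2M on plates 1 and 2. The 3 phases did not overlap, and G2M was the lowest, but the share of all genes with phases apart in this way was not determined. The log2 fold change of G2M over G1 was -0.80 (SE 0.07, edgeR adjusted p = 1.65e-09), a level 42.6% below that of G1. *Olig2* had 1479 and 1250 CPM in G1, 1127 and 916 CPM in S and 929 and 946 CPM in G2M. Both plates were highest in G1, and S and G2M overlapped. The log2 fold change of G2M over G1 was -0.55 (SE 0.09, edgeR adjusted p = 5.60e-05), a level 31.7% lower.

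The same difference was seen in cells thinned to equal depth, with log2 fold changes of -0.79 for *Olig1* and -0.53 for *Olig2*. Per thinned cell, 13.4 ± 0.50 (SD, n = 2 plates) UMIs of *Olig1* were counted in G1, 12.4 ± 0.55 in S and 8.10 ± 0.77 in G2M. For *Olig2* there were 6.51 ± 0.84, 5.26 ± 0.17 and 4.68 ± 0.21 UMIs. CPM by phase and thinned counts are both relative to all UMIs, the former after adjustment by TMM factors. A cell had a median of 8290 and 9825 UMIs in G1, 10994 and 15301 in S, and 9565 and 12902 in G2M of plates 1 and 2. As counted, *Olig1* had 26.4 and 28.8 UMIs per cell in G1, 25.5 and 39.9 in S, and 17.1 and 23.7 in G2M. *Olig1* was thus lower in G2M than in G1 per cell too, whereas in S it was slightly lower on plate 1 and higher on plate 2. *Olig2* had 13.6 and 12.5 UMIs per cell in G1, 13.02 and 15.4 in S, and 9.95 and 12.8 in G2M, so its UMIs per cell in G2M were lower than in G1 on plate 1 only. *Olig1* was positive in every cell of each phase, also after thinning, and *Olig2* in 94.7% to 100% of the cells of each plate and phase, so the lower sums were not made by fewer positive cells alone.

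In S phase, the test with the plate as a block called 975 genes (12.7%), 5.19% of the genes being lower than in G1 and 7.56% higher. Of the 5 lineage genes 2, *Olig1* and *Olig2*, were lower and 0 higher. *Olig1* was lower by a log2 fold change of -0.32 (SE 0.07, edgeR adjusted p = 0.00307) and *Olig2* by -0.41 (SE 0.09, edgeR adjusted p = 0.00262). Both calls ended without the block, where the log2 fold changes were -0.32 and -0.41 and the edgeR adjusted p was 0.201 for *Olig1* and 0.162 for *Olig2*. In thinned cells the call of *Olig1* ended, with a log2 fold change of -0.18 and an edgeR adjusted p of 0.280, whereas *Olig2* was called with -0.37 and 0.0523, and DESeq2 gave an adjusted p of 0.0982 and 0.108. The median share of mitochondrial counts was 14.04% and 13.8% in G1, 11.8% and 11.3% in S, and 11.9% and 11.8% in G2M, and its part in the phase differences was not tested. Among cells under 10% mitochondrial counts, 0 were in G1 on plate 1 and 3 on plate 2, and 0 of the lineage genes were called in S or G2M.

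Markers of NSPCs and of neighbouring fates moved with the phases as well, and their part in the differences of *Olig1* and *Olig2* was not tested. Of the 5 tested NSPC markers, 1, *Vim*, was lower in G2M (log2 fold change -0.29), where 7.40% of all genes were. In S, *Fabp7* was lower (-0.23) and *Nes* higher (0.44), where 5.19% and 7.56% of all genes were. *Vim* was also lower in the high category (-0.22, edgeR adjusted p = 0.0405), where 1.26% of all genes were. All 7 listed astrocyte markers were analysed, with a summed level of 1392 to 1702 CPM in the 4 groups of plate and category, of which *Slc1a3*, a glutamate transporter that NSPCs also carry, was found in 97.7% of the cells. *Gfap*, the defining marker of astrocytes, had 0 cells with a whole UMI. Against 7.40% of all genes lower and 9.01% higher in G2M, 2 of 3 tested astrocyte markers, *Slc1a3* and *Slc1a2*, were lower in G2M (log2 fold changes -0.43 and -0.83). Both were lower in S as well, where 5.19% of all genes were. Between the categories, 1 of 4 tested astrocyte markers was called higher in the high one, where 0.886% of all genes were. This was *Slc1a3* (log2 fold change 0.24, edgeR adjusted p = 0.0856). Of 9 listed neuroblast and neuron markers 6 were analysed and 3 tested, with a summed level of 653 to 853 CPM. Of the 3, 1, *Sox11*, was higher in G2M (log2 fold change 0.52) and in S (0.41, edgeR adjusted p = 0.0672), with 0 called between the categories. The calls of these NSPC, astrocyte and neuron markers were not followed under the alternatives.

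**Figure D3:**
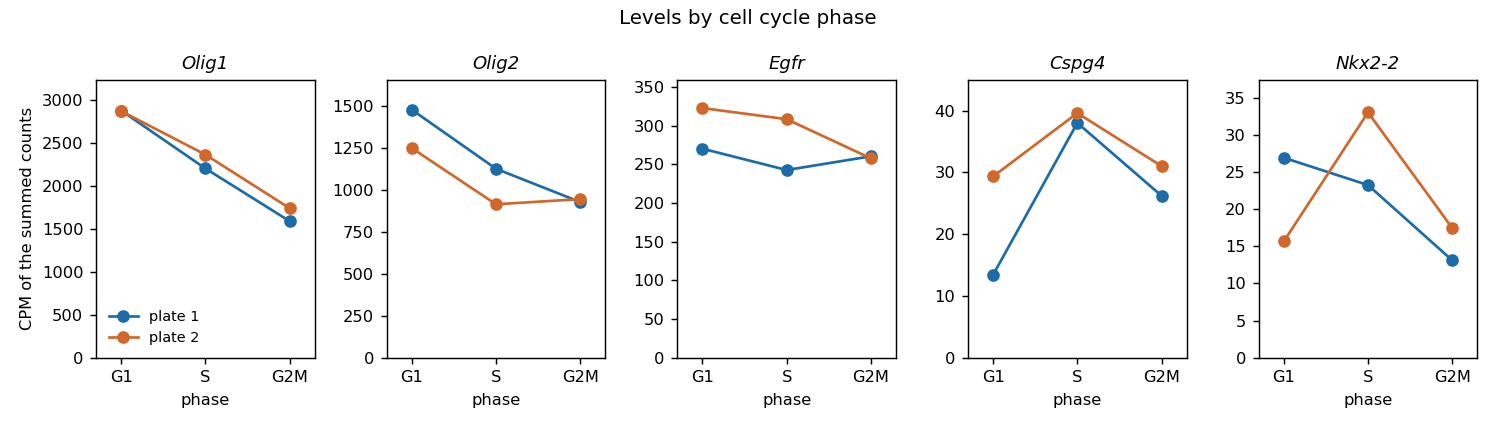
CPM of the summed counts (vertical axes from 0, 1 panel per gene) in G1, S and G2M phase of plate 1 (blue) and plate 2 (orange). *Olig1* and *Olig2* decline from G1 on both plates, to 1593 and 1743 CPM and to 929 and 946 CPM in G2M, whereas *Cspg4* peaks in S phase and the plates differ in shape for *Nkx2-2*.

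*Egfr* had 270 and 323 CPM in G1, 242.8 and 309 CPM in S and 260.5 and 257.9 CPM in G2M, so that G2M lay below both G1 values and S overlapped with G1. Its log2 fold changes over G1 were -0.09 in S (SE 0.14, edgeR adjusted p = 0.792) and -0.19 in G2M (SE 0.14, interval -0.47 to 0.08, edgeR adjusted p = 0.450). *Cspg4* had 13.5 and 29.4 CPM in G1, 38.002 and 39.6 CPM in S and 26.2 and 31.03 CPM in G2M. Both S values lay above both G1 values, with a log2 fold change of 0.91 (SE 0.38, edgeR adjusted p = 0.151) that did not pass the threshold. The sums behind it held 10 to 23.5 UMIs. How many of all genes have phases that part as those of *Egfr* and *Cspg4* did was not determined. *Nkx2-2* had 26.9 and 15.7 CPM in G1, 23.2 and 32.997 CPM in S and 13.1 and 17.5 CPM in G2M, without a common order on the plates.

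Within each plate and category, *Olig1* and *Olig2* were lower in S and in G2M than in G1 in 4 of 4 groups. In the low category *Olig1* had 2816 and 2636 CPM in G1, 2626 and 2399 CPM in S and 1650 and 1868 CPM in G2M. In the high category it had 3023 and 3061 CPM in G1, 1924 and 2451 CPM in S and 1590 and 1507 CPM in G2M. In G1 both high values lay above both low values, and in G2M both lay below. The shares of all genes with this order, or lower than G1 in 4 of 4 groups, were not determined. Whether the difference between the categories itself varied with phase was tested in 12 sums, and 3 of 6163 genes (0.0487%) were called. Of the 4 lineage genes tested, 0 were called, with an unadjusted edgeR p of 0.0127 and an adjusted p of 0.786 for *Olig1* and an adjusted p of 0.991 for *Olig2*. *Nkx2-2* had too few counts for this test.

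**Figure D4:**
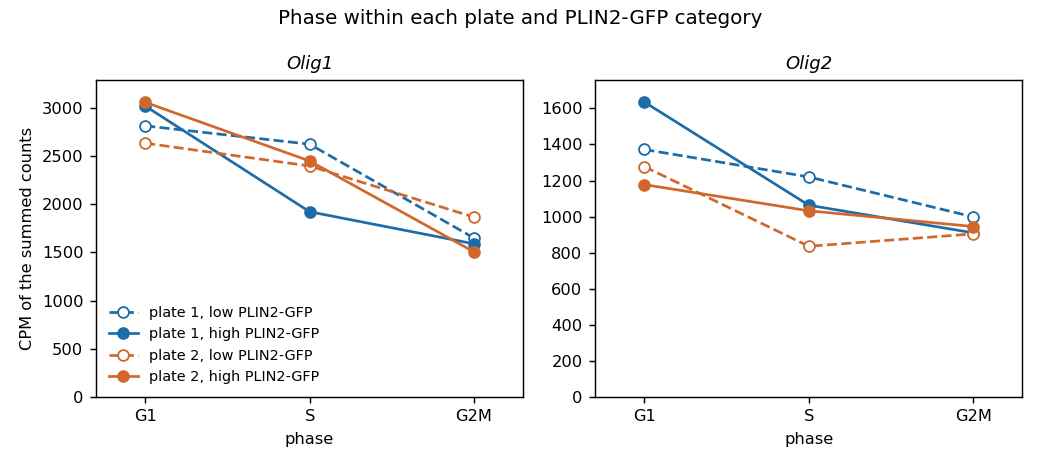
CPM of the summed counts of *Olig1* (left) and *Olig2* (right) in G1, S and G2M phase of the low (open, dashed) and the high (filled, solid) category of plate 1 (blue) and plate 2 (orange). In all 4 groups S and G2M lie below G1, and *Olig1* ends between 1507 and 1868 CPM in G2M.

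The authors divided the cells into 2 clusters, 0 and 1, which are described here without a test because they were made from the same cells and genes. The CPM by cluster are scaled by the total alone, without TMM factors. Cluster 0 held 66.3% and 63.5% and cluster 1 held 26.4% and 20.97% cells of the high PLIN2-GFP category on plates 1 and 2. *Olig1* had 2350 and 2386 CPM in cluster 0 and 2190 and 2257 CPM in cluster 1, and *Olig2* had 1254 and 1018 CPM in cluster 0 and 1148 and 1040 CPM in cluster 1. *Egfr* had 254.9 and 290 CPM in cluster 0 and 264.1 and 303.1 CPM in cluster 1. The ranges of *Olig2* and *Egfr* overlapped between the clusters, whereas *Olig1*, found in every cell of both, was lower in cluster 1 on each plate. *Cspg4* had 19.4 and 27.7 CPM in cluster 0 and 28.8 and 39.7 CPM in cluster 1, and after thinning was positive in 4.29% and 9.09% of the cells of cluster 0 and in 16% and 16.9% of those of cluster 1. *Nkx2-2* was positive in 9.78% and 9.52% of the cells of cluster 0 and in 8.05% and 12.9% of those of cluster 1.

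Other genes of the lineage ranged from widely found to scarce at the progenitor and precursor stages, and those of myelin were scarce. Of 14 listed progenitor stage genes 12 were analysed, and 4 were positive in at least 50% of the cells, led by *Ptprz1* (88.5%), which encodes a receptor tyrosine phosphatase, and *Bcan* (83.9%), which encodes the matrix proteoglycan brevican. Of 10 genes of committed precursors 5 were analysed, of which *Fyn*, a Src family kinase, was positive in 94.7%, *Tcf7l2* in 38.2% and *Itpr2* in 34.9% of the cells. *Myrf*, the factor that switches on myelin genes, had 2 UMIs in all cells. Of 14 myelin genes 6 were analysed, and none was positive in more than 11.51% of the cells, the share of *Aspa*, while *Cnp* was positive in 9.54%. The summed level of the 6 myelin genes was 34.3 to 52.2 CPM in the 4 groups of plate and category, against 3623 to 3985 CPM for the 5 lineage genes.

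Between the categories, 0 of the 9 tested progenitor stage genes were higher and 3 were lower in the high category, with a median log2 fold change of -0.12 against -0.0015 over all genes, where 1.26% of genes were called lower. *Sox6*, a transcription factor of the progenitor stage, had 73.9 and 65.0 CPM in the low and 34.4 and 31.6 CPM in the high category, a log2 fold change of -1.09 (SE 0.26, edgeR adjusted p = 0.0035). *Sox8*, which belongs to the same group of factors as *Sox10*, fell by 0.61 and *Cacng4*, an auxiliary subunit of AMPA receptors, fell by 0.61 on the log2 scale. Of 3 tested myelin genes 1 was higher, where 0.886% of all genes were. This was *Aspa*, the enzyme that splits N-acetylaspartate, with 5.09 and 7.10 CPM in the low and 22.9 and 17.7 CPM in the high category. Of the 7 tested inducers and inhibitors of *Olig2*, *Id2*, an inhibitor of basic helix-loop-helix factors, was lower (log2 fold change -1.19, SE 0.26, edgeR adjusted p = 0.00076). Of these 5 genes, 0 were called without the plate block, and DESeq2 gave none of them an adjusted p. In thinned cells, where *Aspa* was not tested, 0 of the other 4 were called, with log2 fold changes of -1.19 for *Sox6*, -0.49 for *Sox8*, -0.08 for *Cacng4* and -0.59 for *Id2*. *Smo*, the transducer of Hedgehog signals and the most widely found gene of that list (61.8% of the cells), had a log2 fold change of 0.09.

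The ligands and receptors that act with the 2 growth factor receptors were sparse. Of 15 listed genes of the PDGF and EGF families 8 were analysed, led by *Pdgfa* (26.6% of the cells), *Erbb4* (17.8%) and *Hbegf* (14.8%), and 0 of 4 tested were called between the categories. The genes that damp receptor tyrosine kinase signals were in contrast widely found, since 7 of 10 were positive in at least 50% of the cells, with *Spry2* (83.6%), *Spred1* (83.6%) and *Spry4* (81.9%) in front. Between the categories, 0 of 9 tested were called, with a median log2 fold change of 0.17.

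In G2M, where 7.40% of all genes were called lower and 9.01% higher, 3 of the 9 tested feedback genes were lower than in G1 and 0 higher, with a median log2 fold change of -0.50 against -0.015 over all genes. *Dusp6*, the phosphatase that switches off ERK, had 445 and 348 CPM in G1 and 249.1 and 141.6 CPM in G2M (log2 fold change -1.03, SE 0.14, edgeR adjusted p = 5.3e-06). *Lrig1*, which promotes the removal of EGF receptors, had 193.7 and 190 CPM in G1 and 96.7 and 89.2 CPM in G2M, and *Spry4* had 371 and 399 CPM in G1 and 229.4 and 275.4 CPM in G2M. The 3 genes were also lower in S phase by the test with the block, where 5.19% of all genes were. Of the 9 tested progenitor stage genes, 3 were lower and 2 higher in G2M, with a median of 0.0084. *Ptprz1* had 928 and 667 CPM in G1 and 570 and 432 CPM in G2M, *Sox5* fell by 0.74 and *Sox6* by 0.82 on the log2 scale. *Cacng4*, with 44.4 and 66.5 CPM in G1 and 63.9 and 122.2 CPM in G2M, was among the higher ones. *Fyn* was lower by a log2 fold change of -0.42 and *Cnp*, an enzyme of myelin with 9.70 to 32.3 CPM in the 6 sums, by -1.24. Of these 10 genes called in G2M, 5 were called without the block, 5 in thinned cells, where *Cnp* was not tested, and 3 by DESeq2, with *Dusp6*, *Lrig1* and *Ptprz1* called by all of them.

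In S phase, where 5.19% of all genes were called lower and 7.56% higher, 1 of the 9 tested progenitor stage genes was higher and 1 lower. *Cacng4* was higher (log2 fold change 1.09, SE 0.24, edgeR adjusted p = 0.00260) and *Ptprz1* lower (log2 fold change -0.37, SE 0.10, edgeR adjusted p = 0.0158). Of the 7 tested inducers and inhibitors of *Olig2*, 1 was called higher in S and 0 lower. This was *Gli3*, a transcription factor of the Hedgehog pathway, with 6.72 and 0 CPM in G1 and 29.6 and 19.8 CPM in S from 45 UMIs in all cells. Of the 6 genes of these lists called in S, 2 were called without the block, 3 in thinned cells, where *Gli3* was not tested, and 0 by DESeq2.

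**Figure D5:**
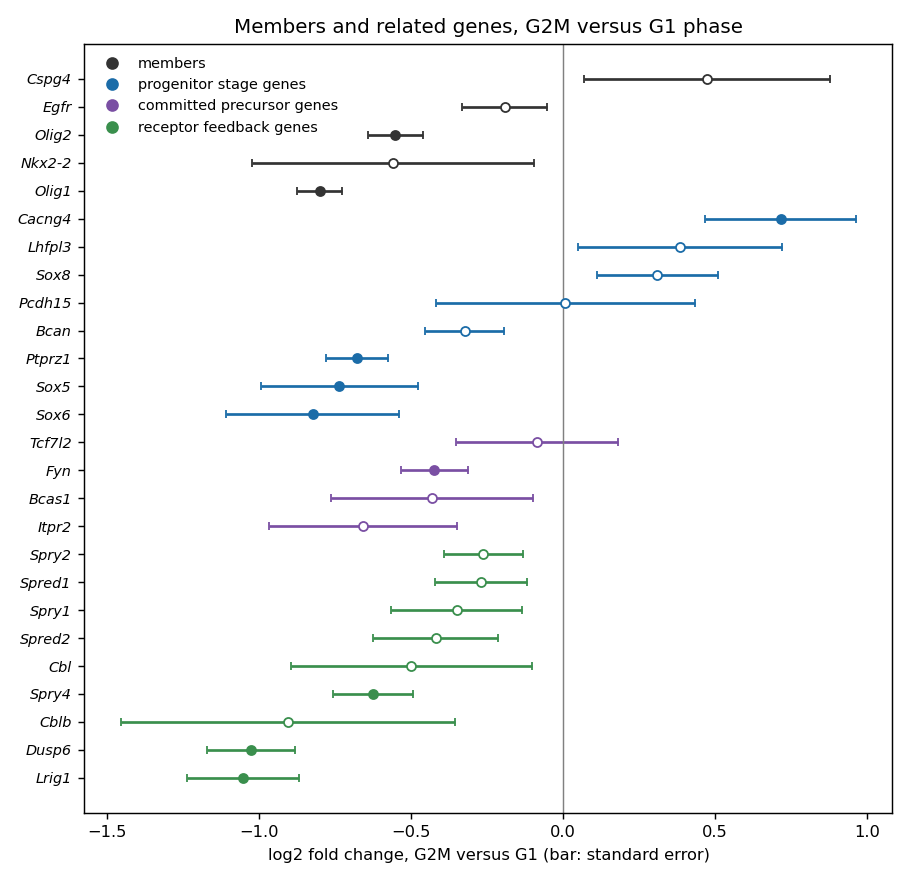
Log2 fold change of G2M over G1 (horizontal axis, bars are standard errors) of the tested lineage genes (black, named members in the key) and of tested progenitor stage (blue), committed precursor (purple) and receptor feedback genes (green). Filled points were called at an adjusted p under 0.1. *Olig1* and *Olig2* lie left of 0 with *Ptprz1*, *Fyn*, *Spry4*, *Dusp6* and *Lrig1*, whereas *Cacng4* lies right of it.

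The genes whose levels were most like those of each lineage gene across single cells were named from 8300 genes found in at least 10% of the cells, by the mean of Pearson's r on plates 1 and 2 after centring on plate and category. The cells of a plate share library and phase mixture, and all values are weak, so they are given as a description. For *Olig2* these were *Dusp6* (r of 0.27 over the cells of plate 1 and 0.35 over those of plate 2), *Spry4* (0.14 and 0.39), *Olig1* (0.26 and 0.25), *Spsb4* (0.18 and 0.31) and *Fyn* (0.17 and 0.28). Its neighbour *Olig1* was thus the third of 8300 genes. For *Olig1* they included *Ptn* (0.24 and 0.42), which encodes the growth factor pleiotrophin, a ligand of the receptor made from *Ptprz1*, then *Slc22a17* (0.30 and 0.26), *Rab31* (0.24 and 0.31) and *Ndfip1* (0.32 and 0.23). For *Egfr* they were *Prrc2c* (0.27 and 0.37), *Canx* (0.21 and 0.37), *Garem2* (0.35 and 0.20), *Cemip2* (0.21 and 0.34) and *Sall3* (0.29 and 0.25). For *Cspg4* they were *Nckap5l*, *Ptprs*, *Cntln*, *Rrp15* and *Arfgap1*, with a mean r of 0.22 to 0.23. *Olig1* and *Egfr* had an r of -0.02 and 0.14, and *Cspg4* and *Egfr* of -0.15 and -0.12.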

How the data were processed

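Single cells of 1 PLIN2-GFP line of mouse NSPCs were measured by SORT-seq on 2 plates, taken as replicates 1 and 2. The authors assigned reads to GRCm38 with Salmon and alevin (versions not given in the sources used here) and deposited estimated counts (expected counts) of UMIs per gene and cell, without normalization. Their deposited per-cell table gives the count of genes detected, the percentage of mitochondrial counts, the phase, the cluster and the plate, and cells were kept by the authors under a limit on mitochondrial counts and after doublet detection. Each of the 304 count columns was joined to the cell with equal total (within 0.01) and number of genes, and 0 columns were left over.

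Counts were summed per plate and category (4 sums), phase (6) or both (12), and rounded. Groups were compared in edgeR 4.0.16 (R 4.3.3) by the quasi-likelihood test with the plate as a block, TMM factors and filterByExpr to remove low genes. P-values were adjusted by Benjamini-Hochberg over all genes tested, and genes were called at an adjusted p under 0.1. SE is the absolute log2 fold change over the square root of F, and intervals are 1.96 SE on either side. The fits leave 1 (category) and 2 (phase) residual degrees of freedom, so the spread is borrowed from all genes (dispersion 0.00327 and 0.00443). The plate number pairs the sums, as low and high cells and all phases of a number come from 1 plate. Deviations of same-numbered sums from the group means had a correlation of 0.300 between categories and of 0.195 to 0.224 between phases. Shares have exact (Clopper-Pearson) intervals of 95%. Thinning drew 5000 UMIs per cell at random. The fits were tested on simulated data. Alternatives were no block, DESeq2 1.42.0, RLE factors or library size alone, no filter, thinned cells, cells under 10% mitochondrial counts, G1 cells, other sums, an adjusted p under 0.05 and leaving out plates or sums. Coordinates are from GENCODE M21, in which 14723 of 15046 gene names were found, and promoters from RefSeq (GRCm38.p6). The named genes are the lineage genes, in the other lists every called gene and the 3 with the highest share of positive cells, and the 5 genes most like each lineage gene found in at least 20% of the cells. Some listed genes and genes of like pattern are not reported here by name, though the counts over their lists include them. Genes and lists were chosen with earlier results of these data known.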

Additional observations from a re-analysis of the deposited data

How the results depend on the processing

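Between the categories 0 of the lineage genes were called under any alternative that tested them (12 for *Olig1* and *Olig2*, 11 for *Egfr*, 9 for *Cspg4* and 8 for *Nkx2-2*), and 2 in G2M under 7 of 8. In S phase 2 were called in the main analysis, 0 without the replicate block, 1 by DESeq2 with the block, 1 in thinned cells and 0 in cells under 10% mitochondrial counts, a limit that also left 0 calls in G2M and keeps 3 G1 cells. No other call on the lineage genes changed without the block. The log2 fold change of high over low, which was not called for any of them, turned in sign for *Olig1* in cells under 10% mitochondrial counts (0.18), in G1 cells (0.14) and without replicate 1 (0.029, range -0.20 to 0.029 with plates left out). It turned for *Olig2* with library size only (0.050), in thinned cells (0.059), under 10% mitochondrial counts (0.11), in G1 cells (0.076), and with sums left out (without replicate 1 0.06, range -0.16 to 0.14). It turned for *Cspg4* without replicate 1 (0.20, range -0.59 to 0.22 with sums left out) and for *Egfr* under 10% mitochondrial counts (0.34) and without replicate 2 (0.02, range -0.24 to 0.038). In S phase the sign turned under 10% mitochondrial counts for *Olig1* (0.030), *Olig2* (0.18) and *Egfr* (0.57), as it did in G2M for *Egfr* (0.60). *Nkx2-2* turned on leaving out a plate, with a range of -0.21 to 1.052 in S and of -1.01 to 0.15 in G2M. The cause of these changes was not tested. The share of positive cells was 97.3% for *Olig2*, 71.04% for *Egfr*, 11.6% for *Cspg4* and 5.02% for *Nkx2-2* in thinned cells, 24.01% for *Nkx2-2* with parts of UMIs, and 100.0%, 39.4% and 33.3% for *Olig2*, *Cspg4* and *Nkx2-2* under 10% mitochondrial counts. Leaving out a plate gave 97.6% to 99.4% for *Olig2*, 78.8% to 89.6% for *Egfr*, 18.4% to 31.2% for *Cspg4* and 8.94% to 11.2% for *Nkx2-2*. Over all genes, 2.14% were called between the categories, but 1 gene without the block, 11 by DESeq2 (which gave 418 genes an adjusted p), 23 in thinned cells, 2 under 10% mitochondrial counts, 8 in G1 cells, and 6 to 22 with 1 sum and the block left out, where the lone sum is assumed to vary like the others. In S phase 444 were called without the block, 332 in thinned cells, 13 under 10% mitochondrial counts and 2.71% of the tested genes by DESeq2, against 975 (12.7%), and in G2M 653, 479 and 70, with 317 by DESeq2, against 1255. The interaction had 0 calls without the block.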
